A study of Mus musculus with 8 samples.

Results

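Macrophage and complement genes were measured in the cochlea of WT and *Opa1*+/- mice. The set holds 10 genes, *Csf1r*, *Cx3cr1*, *Aif1*, *Cd68*, *C1qa*, *C1qb*, *C1qc*, *Adgre1*, *Mrc1* and *Ptprc*, chosen by symbol as genes of resident macrophages and of C1q. They are 10 of the 47502 gene symbols in the count tables, and each was found once. The data are read counts from whole cochleae of untreated mice. Of these 4 were WT, called mice 4, 5, 6 and 8, and 4 were *Opa1*+/-, called Het_2, Het_7, Het_484 and Het_491. *Opa1*+/- mice carry the delTTAG mutation of *Opa1* as a heterozygous knock-in in a mixed C57BL/6J × 129Sv/Pas background, so that every cell type carries it, and the WT mice are from the same line. The mice were 21 days old by the methods of the study (1 month elsewhere in its text), and the study's animal list gives 8 cochleae from 4 mice in each group. The study calls the WT mice littermates of the mutants, but the labels do not give the sex or litter of a mouse.

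Macrophages settle in the cochlea before hearing begins and remain in the lateral wall, the spiral ligament, the auditory nerve and around the spiral ganglion neurons. They depend on the receptor CSF1R, which binds CSF1 and IL34, and many of them carry CX3CR1, the receptor of the neuronal and endothelial ligand CX3CL1. They also make C1q, the recognition subunit of the classical complement pathway, whose A, B and C chains come from neighbouring genes and assemble into 1 protein. C1q binds antibody complexes, dying cells and synapses and starts cleavage of C4, *C2* and *C3*. Interferon-stimulated genes are a different group, induced in most cell types by interferons.

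Between 15978051 and 20828030 counts per mouse fell on named genes. *Opa1* was lower in each *Opa1*+/- mouse (60.4 to 70.0 CPM, read counts scaled to a common library total) than in each WT mouse (111.7 to 125.9 CPM), with an adjusted p of 0.00515 in edgeR's quasi-likelihood test. Among 19366 genes tested, 5 passed an adjusted p of 0.05, which is 0.0258%. Of 14 cochlear marker genes, 13 were tested, and *Atoh1*, a gene of immature hair cells, was below the minimum count. Transcripts of other sources were also present, and their amounts differed between mice. The summed level of 18 neutrophil and bone marrow genes was 1547 CPM in WT mouse 4 and 469.2 to 578.9 CPM in the other WT mice. In *Opa1*+/- mice it ranged from 495.1 to 1270 CPM.

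The members were present at moderate depth, with 37 to 844 counts per gene and mouse, and all 10 passed the minimum mean count of 10. Compared per kb of merged exons, the chains of C1q led the order. *C1qb* had 22.2 CPM per kb as the mean of 8 mice, *C1qa* 16.0 and *C1qc* 10.4. *Cd68*, a lysosomal membrane protein of phagocytes, followed with 10.1 CPM per kb, and *Csf1r* had 6.98. The phagocytic receptor gene *Mrc1* and the chemokine receptor gene *Cx3cr1* stood at 3.35 and 3.30 CPM per kb. *Adgre1*, which encodes the macrophage surface protein F4/80, and *Aif1*, which encodes the calcium-binding protein IBA1, each had 2.10 CPM per kb. *Ptprc*, which encodes the pan-leukocyte phosphatase CD45, was last with 0.753 CPM per kb over an exon length of 18313 bases in the annotation. In this order the ranges over the 8 mice were apart only between *Csf1r* and *Mrc1*, between *Cx3cr1* and *Adgre1* and between *Aif1* and *Ptprc*. Neighbours such as *C1qc* and *Cd68*, where *C1qc* was higher in 3 of 8 mice, or *Mrc1* and *Cx3cr1*, where *Mrc1* was higher in 5 of 8, did not differ beyond their spread. *C1qb* was nevertheless higher than *C1qa*, and *C1qa* higher than *C1qc*, in 8 of 8 mice.

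**Figure D1:**
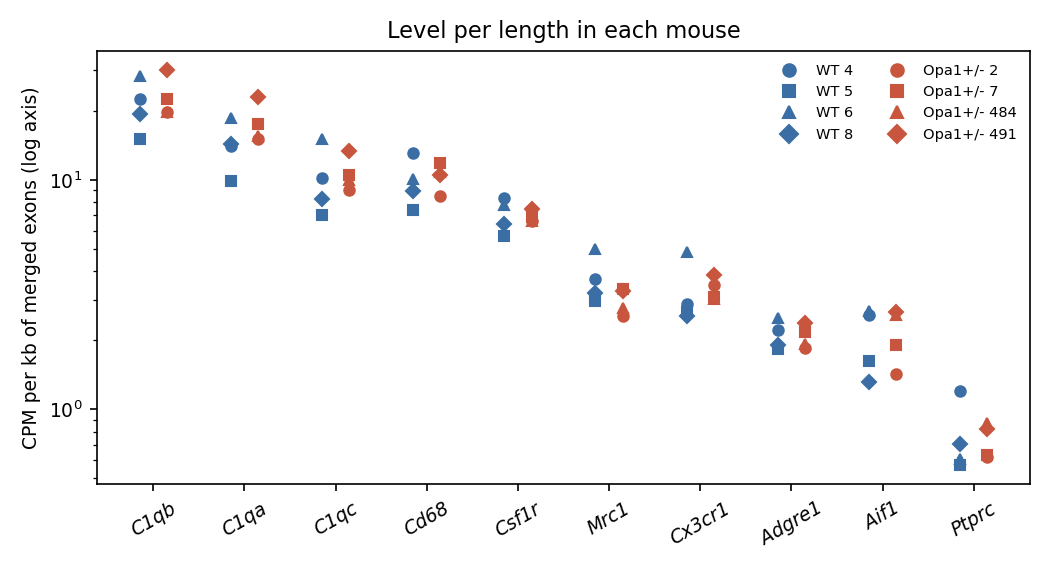
Level per length of the 10 members in each of 8 cochlear libraries, in CPM per kb of merged exons on a log axis. Blue symbols are the 4 WT mice and red symbols the 4 *Opa1*+/- mice. *C1qb* leads with a mean of 22.2 CPM per kb and *Ptprc* is last with 0.753, and blue and red symbols overlap for each gene.

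The genes of the C1q chains lie side by side on the minus strand of chromosome 4 (GRCm38), in a stretch of 18675 bases. *C1qb* occupies 136880129 to 136886187, *C1qc* 136889804 to 136893065 and *C1qa* 136895917 to 136898803.

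Upstream sequence was compared because the levels of most members correlated over the 8 mice, as described further on. RefSeq sequence of GRCm38.p6 was at hand for 7 of the 10 genes, and 250 bases before the start were searched on both strands for GAGGAA, the core bound by PU.1, the main transcription factor of the macrophage lineage. It was found upstream of 6 of the 7 (*Aif1*, *C1qb*, *C1qc*, *Cd68*, *Mrc1* and *Ptprc*), against 25.9% of 27025 genes, and in 10 of 27 interferon-stimulated genes with a sequence. A gene with several start sites was counted when 1 of its windows held the core, as for *Ptprc*, where 1 of 2 did. The pattern GAAANNGAAA, a form of the interferon-stimulated response element, was found in 1 of the 7, *Aif1*, in 10 of the 27 interferon-stimulated genes and in 3.46% of all genes. A match is a stretch of letters and no evidence that a factor binds there. Stretches of 60 bases are shown for *C1qb*, *C1qc*, *Cd68* and *Mrc1* with the PU.1 core in capitals, as the members with the highest levels per length that have a match, then for *Aif1* with each pattern, and for *Isg15* as an interferon-stimulated gene. TTCCTC is the same core read on the other strand.
C1qb: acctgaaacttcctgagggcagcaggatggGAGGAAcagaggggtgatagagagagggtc
C1qc: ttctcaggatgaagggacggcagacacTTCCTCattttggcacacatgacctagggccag
Cd68: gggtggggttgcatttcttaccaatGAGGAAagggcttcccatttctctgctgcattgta
Mrc1: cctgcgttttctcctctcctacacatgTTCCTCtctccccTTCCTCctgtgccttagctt
Aif1 (PU.1 core): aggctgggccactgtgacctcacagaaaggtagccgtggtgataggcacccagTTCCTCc
Aif1 (interferon pattern): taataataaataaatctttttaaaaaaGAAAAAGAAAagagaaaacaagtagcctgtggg
Isg15 (interferon pattern): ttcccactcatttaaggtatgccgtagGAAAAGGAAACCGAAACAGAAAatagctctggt

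The stretch of *C1qb* ends at the base before the RefSeq start, on the minus strand at chr4:136886201-136886260, and the others begin 105 to 250 bases before the start, except the first of *Aif1*. Those of *C1qc* and *Cd68* are chr4:136893075-136893134 and chr11:69666361-69666420, both on the minus strand. *Mrc1*, at chr2:14229207-14229266 on the plus strand, has 3 cores in the window, of which 2 are shown. In *Aif1* the stretches are chr17:35176053-35176112 and chr17:35176177-35176236 on the minus strand, and the first includes 16 bases of an annotated exon. *Isg15*, at chr4:156200864-156200923 on the minus strand, has 3 overlapping matches to the interferon pattern, and *Aif1* has 1.

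WT and *Opa1*+/- mice were then compared for each member, which asks whether the cochlea of the mutant holds more or less macrophage RNA. No member passed an adjusted p of 0.05 in edgeR, DESeq2 or limma voom, and none had an unadjusted p under 0.05 in any of these, where 3.51% of all genes tested were higher and 3.22% lower in *Opa1*+/- mice at that threshold by edgeR. For none of the 10 were the levels of the groups apart, against 1.98% of all genes apart in the higher and 2.33% in the lower direction. The log2 fold changes of *Opa1*+/- over WT were above 0 for 6 members and below 0 for 4. Their median was 0.063 and their range ran from -0.32 for *Mrc1* to 0.32 for *C1qa*. With 1 mouse left out the median lay between -0.06 (without WT mouse 8) and 0.16 (without WT mouse 6). In limma voom, which weights the libraries by quality, the median was 0.173 and all members but *Mrc1* lay above 0. Over all genes tested the median was 3.95e-04, with 50.13% above 0. The standard error of a log2 fold change is given as SE. In whole cochleae, fewer cells of a type and less RNA per cell cannot be told apart.

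*Csf1r* had 48.2, 33.0, 44.7 and 37.0 CPM in WT mice 4, 5, 6 and 8, and 38.2, 39.8, 38.4 and 43.2 CPM in *Opa1*+/- mice Het_2, Het_7, Het_484 and Het_491. The *Opa1*+/- values all lay inside the WT range. The means were 40.7 ± 6.97 and 39.9 ± 2.32 CPM (SD, n = 4 each), and the log2 fold change was -0.03 (SE 0.113, adjusted p = 0.9709 by edgeR). The 95% interval of the fold ran from 0.822 to 1.17, the narrowest of the set. With 1 mouse left out the log2 value ran from -0.12 (without WT mouse 5) to 0.06 (without WT mouse 4). *Csf1r* lies on chromosome 18 from 61100598 to 61132149, and 873 bases of its exons (15.1%) overlap exons of *Hmgxb3* on the opposite strand. The counting program and its use of strand are not given in the sources used here, so the counts of *Csf1r* may include reads of *Hmgxb3*. The ligands were also close between groups. *Csf1* had 28.8 ± 5.47 CPM in WT against 27.7 ± 1.77 CPM in *Opa1*+/- mice (SD, n = 4 each), and *Il34* 9.35 ± 2.43 and 9.86 ± 0.373 CPM. Their log2 fold changes were -0.05 and 0.08, with an adjusted p of 0.9438 for each.

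*Cx3cr1* had 13.01, 11.96, 21.9 and 11.5 CPM in the WT mice and 15.7, 13.8, 13.7 and 17.4 CPM in the *Opa1*+/- mice, in the same order. WT mouse 6 stood above all others, and the remaining 3 WT mice stood below all *Opa1*+/- mice. With all 8 mice the log2 fold change was 0.06 (SE 0.201, adjusted p = 0.9658 by edgeR). Without WT mouse 6 it was 0.32, with an unadjusted p of 0.01767 and an adjusted p of 0.6357, and without WT mouse 8 it was -0.05. For *Cx3cr1*, on chromosome 9 from 119901616 to 120069879, an exon overlap with *Gm33858* on the opposite strand covers 78 bases (1.73%). For the other 8 members no exon overlap was found. The gene of its ligand, *Cx3cl1*, had 32.0 ± 4.75 and 32.6 ± 1.61 CPM (SD, n = 4 each), a log2 fold change of 0.03 with an adjusted p of 0.9631.

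The chains of C1q were taken next. For *C1qa*, 14.6, 10.3, 19.4 and 14.9 CPM were found in WT mice 4, 5, 6 and 8 and 15.6, 18.3, 16.1 and 23.9 CPM in *Opa1*+/- mice Het_2, Het_7, Het_484 and Het_491. All 4 *Opa1*+/- mice lay above 3 of the 4 WT mice, and WT mouse 6 lay above 3 of the *Opa1*+/- mice. *C1qa* had the highest log2 fold change of the set, 0.32 (SE 0.195, adjusted p = 0.7756 by edgeR), a fold of 1.25 with a 95% interval from 0.922 to 1.69. Without WT mouse 6 the log2 value was 0.48 with an unadjusted p of 0.02685 and an adjusted p of 0.6357, and without Het_491 it was 0.17.

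*C1qb* had 24.5, 16.5, 30.9 and 21.1 CPM in the WT mice and 21.5, 24.4, 21.6 and 32.6 CPM in the *Opa1*+/- mice. *C1qc* had 19.7, 13.6, 29.2 and 16.0 CPM against 17.4, 20.3, 19.3 and 25.8 CPM. In both genes WT mouse 5 was the lowest of all, and WT mouse 6 and Het_491 were the highest. Their log2 fold changes were 0.11 (SE 0.196) and 0.08 (SE 0.223), with adjusted p values of 0.933 and 0.9567. Without WT mouse 6 they were 0.28 and 0.33, and without WT mouse 5 they were -0.03 and -0.06, while without Het_491 both were -0.04. Summed over the chains, C1q had 57.7 ± 16.4 CPM in WT against 64.2 ± 12.6 CPM in *Opa1*+/- mice (SD, n = 4 each).

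*Mrc1*, which encodes the mannose receptor CD206, was the member furthest below 0. Its level was 23.5, 18.9, 31.8 and 20.6 CPM in the WT mice and 16.2, 21.2, 17.6 and 20.8 CPM in the *Opa1*+/- mice. WT mouse 6 was again the highest, and Het_2 and Het_484 lay below each WT mouse. The log2 fold change was -0.32 (SE 0.163, unadjusted p = 0.08175, adjusted p = 0.758 by edgeR), a fold of 0.802 with a 95% interval from 0.622 to 1.03. Without WT mouse 6 it was -0.14.

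*Ptprc* had 21.9, 10.5, 11.2 and 12.9 CPM in the WT mice and 11.3, 11.6, 16.0 and 14.999 CPM in the *Opa1*+/- mice. WT mouse 4 was the highest, as it was for the summed neutrophil and bone marrow genes. The log2 fold change of *Ptprc* was -0.07 (SE 0.235, adjusted p = 0.964 by edgeR) with all mice and 0.22 without WT mouse 4. Over the 8 mice its level correlated with that sum at r = 0.936, as a description with shared libraries, and at 0.336 with the other 9 members. With the log2 sum of the neutrophil and bone marrow genes as a covariate, the log2 fold change was -0.11 with an SE of 0.0985 (adjusted p = 0.8569 by edgeR).

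*Cd68* ranged from 9.28 to 16.5 CPM in WT and from 10.6 to 14.8 CPM in *Opa1*+/- mice, *Adgre1* from 5.96 to 8.07 and from 5.97 to 7.72 CPM, and *Aif1* from 2.01 to 4.12 and from 2.19 to 4.08 CPM. For each of these genes the *Opa1*+/- range lay inside the WT range. The log2 fold changes were 0.07 (SE 0.175) for *Cd68*, -0.02 (SE 0.139) for *Adgre1* and 0.07 (SE 0.284) for *Aif1*. The adjusted p values were 0.9487, 0.9831 and 0.9707 by edgeR. With 1 mouse left out all of these signs could turn, since the values ran from -0.04 (without WT mouse 5) to 0.24 (without WT mouse 4) for *Cd68*, from -0.09 (without Het_491) to 0.07 (without WT mouse 6) for *Adgre1* and from -0.10 (without WT mouse 8) to 0.23 (without WT mouse 6) for *Aif1*. At 37 to 69 counts per mouse, *Aif1* was the least deeply sequenced member, and its 95% interval for the fold ran from 0.675 to 1.63.

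**Figure D2:**
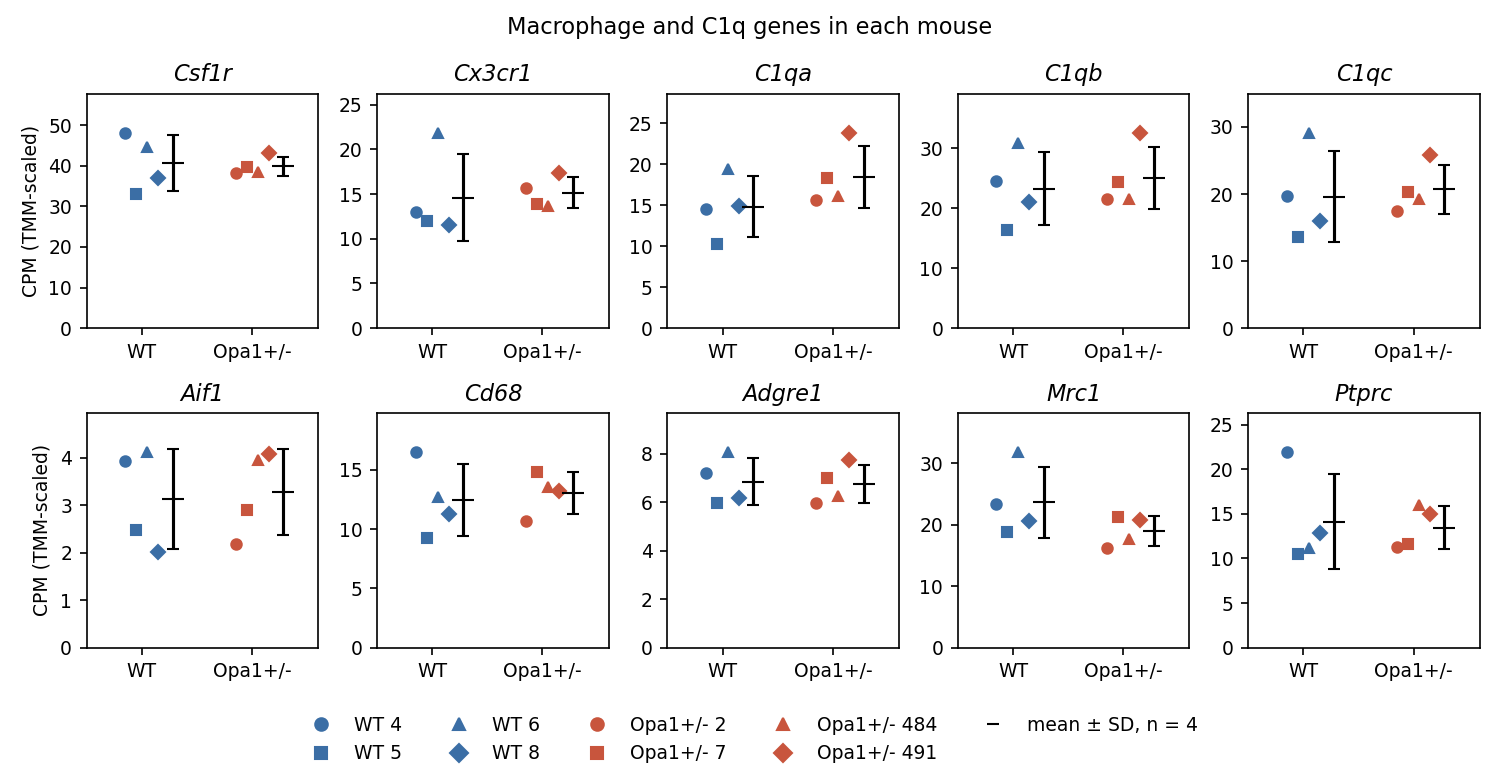
CPM, scaled by TMM factors, of each member in each mouse on axes that start at 0, with WT in blue and *Opa1*+/- in red. Black bars give the mean ± SD of 4 mice. The groups overlap in each of the 10 panels, WT mouse 6 stands alone for *Cx3cr1* at 21.9 CPM, and WT mouse 4 does so for *Ptprc* at 21.9 CPM.

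Wider lists were examined to see whether these 10 genes were typical of their kind. Of 30 other macrophage genes, all tested, 23 had a log2 fold change above 0 and 7 below, with a median of 0.06, and none had an adjusted or unadjusted p under 0.05 in edgeR. Among the most abundant per length were *Lyz2* (lysozyme, 157.5 CPM per kb) and *Lgmn* (the lysosomal protease legumain, 63.7). *Lyz2*, which neutrophils also express, ranged from 133.3 to 309.1 CPM in WT and from 124.7 to 394.7 CPM in *Opa1*+/- mice. The lowest p values in edgeR belonged to *Tlr4*, the lipopolysaccharide receptor (log2 fold change -0.26, adjusted p = 0.7491), and to *Slc11a1*, a metal transporter of phagosomes (0.31, adjusted p = 0.7566).

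Since *Mrc1* marks macrophages along vessels, genes of that type were listed separately. Of 10 such genes 9 were tested, 3 lay above and 6 below 0, and none had an unadjusted p under 0.05. *Cd163*, the haemoglobin scavenger receptor, had 5.28 ± 1.62 CPM in WT against 4.41 ± 0.885 CPM in *Opa1*+/- mice (SD, n = 4 each), a log2 fold change of -0.26 with an adjusted p of 0.8489. *Cbr2* had the highest level per length (56.8 CPM per kb) and a log2 fold change of -0.19 (adjusted p = 0.9239), followed by *Pf4* at -0.10 (22.4 CPM per kb, adjusted p = 0.9726). *F13a1*, *Lyve1* and *Stab1* had log2 fold changes close to 0 (between -0.03 for *Stab1* and 3.77e-04 for *F13a1*). *Timd4*, a receptor for phosphatidylserine, had 0.244 to 1.14 CPM and a log2 fold change of -0.20 (adjusted p = 0.9431). The median of the list was -0.03. *Pf4* had 32.2 CPM in WT mouse 4 and 8.13 to 14.2 CPM in the other WT mice. Over the 8 mice the log2 sum of the list had r = -0.181 with *Mrc1* and 0.601 with *Ptprc*, as a description. With the other members r lay between -0.362 (*Cx3cr1*) and 0.13 (*Csf1r*). The list is therefore no measure of the macrophages that *Mrc1* marks.

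MHC class II genes, which present antigen on some macrophages and on dendritic and B cells, lay above 0 in 7 of 7 cases with a median log2 fold change of 0.14, and none had an unadjusted p under 0.05. *Cd74*, the invariant chain, had the lowest p of them (0.0823, adjusted p = 0.758), with a log2 fold change of 0.17, followed by the class II chains *H2-Ab1* (0.15, adjusted p = 0.7674) and *H2-Eb1* (0.14, adjusted p = 0.7975). Of 5 genes that define microglia in the brain all were detected, among them *Tmem119* at 12.9 ± 4.44 and 15.3 ± 1.14 CPM and *P2ry12* at 6.76 ± 1.18 and 6.52 ± 0.747 CPM in WT and *Opa1*+/- mice (SD, n = 4 each). Their log2 fold changes were 0.24 and -0.05, with adjusted p values of 0.8438 and 0.9625. *Olfml3* had 68.0 ± 6.29 and 72.2 ± 4.82 CPM (log2 fold change 0.09), and *Siglech* 4.78 ± 1.16 and 4.35 ± 0.691 CPM (-0.14). Per length, *Olfml3* (11.4 CPM per kb) stood above *Csf1r* (6.98). *Tmem119* (6.09), *P2ry12* (2.61) and *Siglech* (1.35) stood below it. Which cells of the whole cochlea made these transcripts cannot be told, so their detection does not show microglia.

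**Figure D3:**
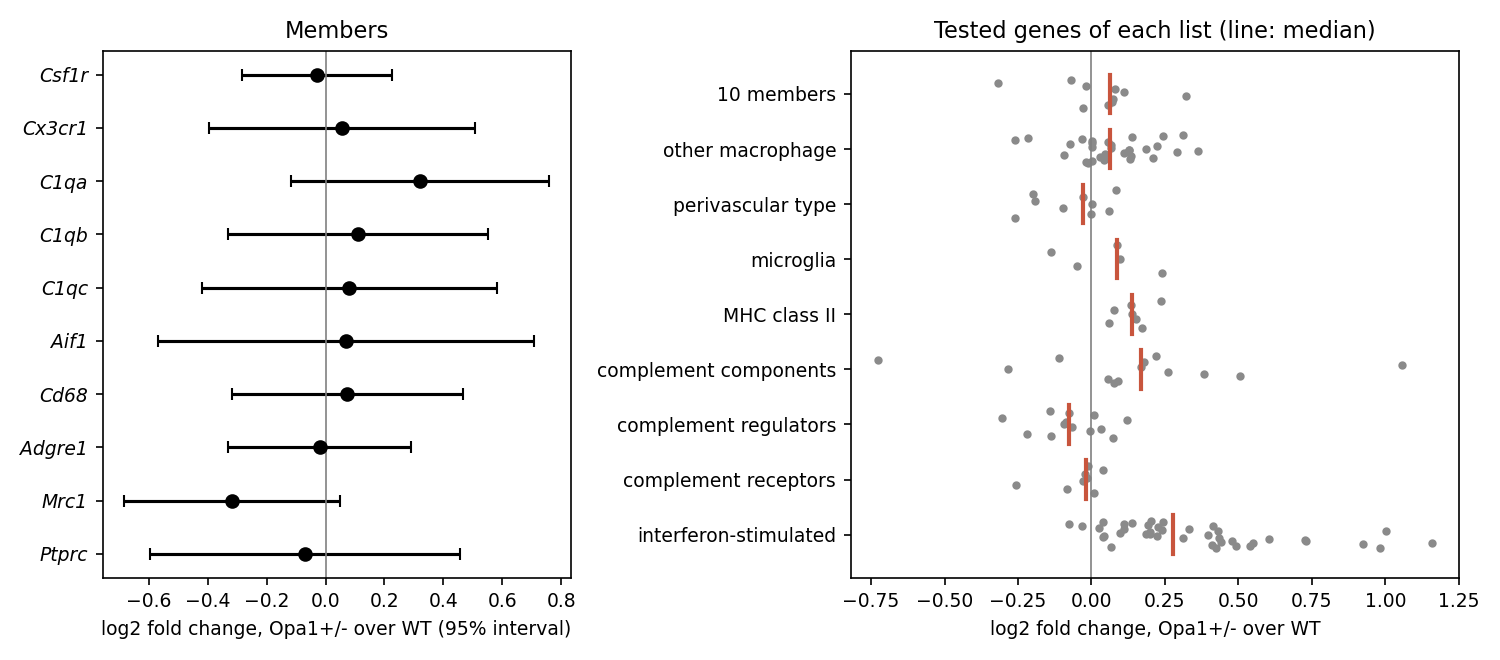
Left, log2 fold change of *Opa1*+/- over WT for each member with its 95% interval (4 against 4 mice). Right, the same quantity for the tested genes of each list as grey points with the median as a red line. All 10 intervals on the left include 0, and the medians on the right are 0.063 for the members and 0.277 for the interferon-stimulated genes.

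The spread of the members among mice was set beside counting error. The coefficient of variation in WT mice was between 14.3% for *Adgre1* and 37.5% for *Ptprc*, and in *Opa1*+/- mice between 5.83% for *Csf1r* and 27.5% for *Aif1*. Counting error by itself would give 3.64% to 13.4%, and for *Adgre1* in *Opa1*+/- mice the values were close (11.7% observed and 9.30% from counting). Each member's log2 level was set against the mean of the other 9 over the 8 mice, as a description in which the points share libraries. *C1qc* reached a Pearson r of 0.931, *Adgre1* 0.927, *C1qb* 0.923 and *Csf1r* 0.892. *Aif1*, *C1qa*, *Cd68*, *Cx3cr1* and *Mrc1* lay between 0.793 and 0.625, and *Ptprc* at 0.336 was the least like the rest.

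The mean standardised level of the 10 genes put WT mouse 6 (1.02) and Het_491 (0.837) at the top and WT mouse 5 (-1.24) at the bottom, so that both ends of the range were held by WT mice. Among 15523 non-member genes with a mean count of at least 50, the 10 most like this profile were headed by *Fcgr3* (an Fc receptor, r = 0.968), *Ankrd55* (0.960), *Cyba* (a subunit of the phagocyte oxidase, 0.955) and Clec7a (the beta-glucan receptor dectin-1, 0.954). The others were *Gdap1l1*, *Coq10a*, *Trnp1*, *Zmat1*, *Kcnip1* and *Ctsc*, a lysosomal protease, at 0.930 to 0.921. With 8 mice and this many genes, high values of r are to be had without any relation.

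Genes of central glia were summed beside the profile. A list of 10 genes of central oligodendrocytes and astrocytes, added after the values were seen, summed to 820.9 CPM in WT mouse 6, 732.0 CPM in Het_491 and 410.0 to 565.6 CPM in the other WT mice. The remaining *Opa1*+/- mice had 517.5 to 658.0 CPM. Of its defining genes *Gfap*, *Mobp* and *Mog* were well above 0 in each mouse, and *Opalin* was below the minimum count. Of the 9 genes tested 6 lay above 0, and 1, *Olig1*, had an unadjusted p under 0.05 in edgeR (log2 fold change 0.45, adjusted p = 0.7323). *Aqp4* of this list is also expressed by supporting cells of the cochlea. Both mice with the highest sums of the 10 members also had the most of this RNA, but the order differed in other mice. Het_2 had 658.0 CPM of it with the lowest member sum of its group (154.7 CPM). WT mouse 5 had 565.6 CPM against 534.8 CPM in WT mouse 4, with member sums of 132.4 and 193.0 CPM. The part of central tissue in the level of the members was not tested.

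Ratios of counts within a library do not depend on its scaling, and they showed where members departed from each other. Of the 45 pairs of members, 6 had ratios that did not overlap between the groups, 4 of them with *Mrc1* and 3 with *C1qa*. These pairs were picked for that, so they are given without a test. *C1qa* had 0.620, 0.545, 0.610 and 0.726 counts for each count of *Mrc1* in WT mice 4, 5, 6 and 8 and 0.964, 0.863, 0.912 and 1.15 in *Opa1*+/- mice Het_2, Het_7, Het_484 and Het_491. Each *Opa1*+/- mouse was thus above each WT mouse, including WT mouse 6, and the ratio of the means was 1.55. The ratio of *C1qb* to *Mrc1* was 0.978 ± 0.0781 in WT and 1.32 ± 0.182 in *Opa1*+/- mice (SD, n = 4 each), that of *C1qc* to *Mrc1* 0.814 ± 0.0847 and 1.09 ± 0.118, and that of *Adgre1* to *Mrc1* 0.294 ± 0.0277 and 0.356 ± 0.0184.

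Between the chains themselves, the ratio of *C1qa* to *C1qb* was 0.593, 0.626, 0.629 and 0.709 in the WT mice and 0.725, 0.750, 0.745 and 0.732 in the *Opa1*+/- mice. The groups were apart by a small gap, and the mean ratio differed by a factor of 1.15. The ratio of *C1qa* to *Adgre1* was 2.14 ± 0.333 and 2.72 ± 0.247. As background, the ratio of a gene to *Mrc1* did not overlap for 6.39% of 19356 other genes, the largest share for any member, and for *C1qa* the share was 3.40%. For the other 8 members it was between 0.196% and 1.40%.

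**Figure D4:**
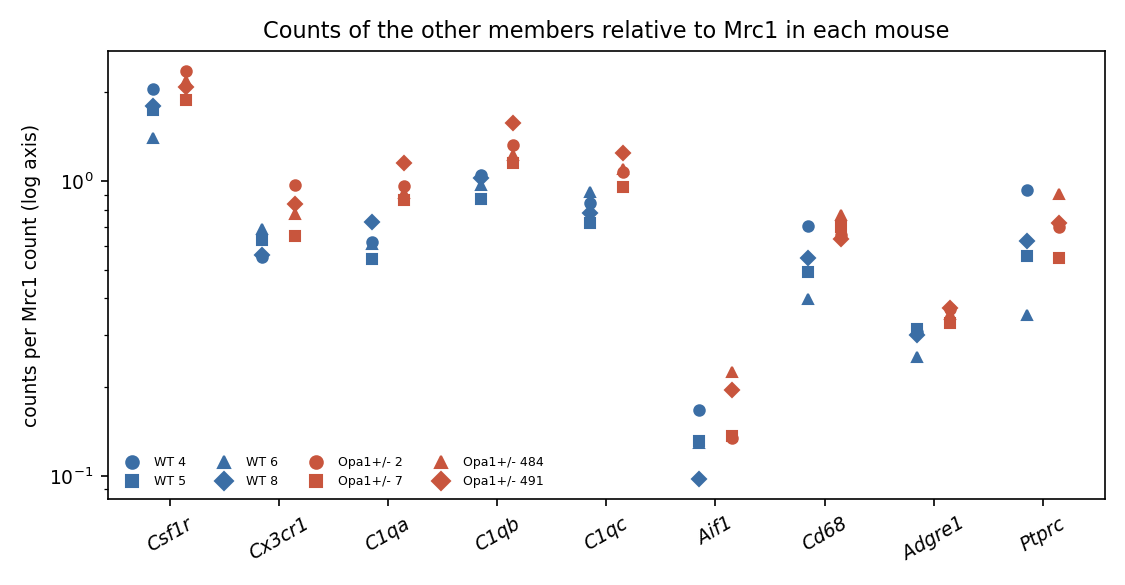
Counts of 9 members for each count of *Mrc1* in the same library, on a log axis, with WT in blue and *Opa1*+/- in red. Red symbols lie above all blue ones for *C1qa*, *C1qb*, *C1qc* and *Adgre1* and overlap them for the other 5 genes.

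Complement genes beyond C1q were examined along the cascade. Of 22 components 13 were tested, 10 with a log2 fold change above 0. *C3*, the central component on which all pathways converge, had 61.6, 53.4, 40.6 and 38.0 CPM in the WT mice and 56.2, 63.4, 70.4 and 85.1 CPM in the *Opa1*+/- mice. The ranges overlapped only in that WT mouse 4 lay above Het_2. Its log2 fold change was 0.51 (SE 0.171, unadjusted p = 0.0154, adjusted p = 0.7215 by edgeR). *C4a* had 8.83 ± 1.07 and 11.5 ± 1.90 CPM (SD, n = 4 each), a log2 fold change of 0.38 with an unadjusted p of 0.0229. *C4a* and its near-identical copy *C4b*, which had a log2 fold change of 0.26 (adjusted p = 0.7725), can exchange reads, so their values are uncertain.

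*Fcna*, a ficolin of the lectin pathway made by macrophages, had 2.17, 1.51, 2.57 and 1.91 CPM in the WT mice and 1.18, 1.55, 0.990 and 1.15 CPM in the *Opa1*+/- mice. Its log2 fold change was -0.73 (SE 0.227, unadjusted p = 0.0102, adjusted p = 0.7215). Thus *C3*, *C4a* and *Fcna* had an unadjusted p under 0.05, and no component passed the adjusted threshold. Of all genes tested, 3.51% were higher and 3.22% lower at an unadjusted p under 0.05. The component with the highest level per length was *Cfd* (34.5 CPM per kb), the factor D of the alternative pathway and a product of fat cells, which varied from 4.18 to 39.9 CPM in WT and from 25.4 to 53.9 CPM in *Opa1*+/- mice (log2 fold change 1.06, adjusted p = 0.758). *C3* and *C4b* followed with 11.4 and 9.05 CPM per kb. Of the genes of the terminal complex, *Hc*, *C6*, *C7*, *C8a*, *C8b* and *C9* were below the minimum count, and *C8g* was tested at 5 to 18 counts per mouse (log2 fold change -0.28, adjusted p = 0.9006).

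Of 14 regulators 13 were tested, 4 above and 9 below 0, with a median of -0.08 and none with an unadjusted p under 0.05. *Clu* (clusterin, 352.6 CPM per kb), *Serping1* (the C1 inhibitor, 76.9) and *Vtn* (vitronectin, 31.8) were the most abundant per length, with log2 fold changes of 0.12, 0.07 and -0.30. *Serping1*, which blocks the proteases bound to C1q, had 174.3 ± 18.7 and 183.2 ± 8.84 CPM (SD, n = 4 each). The lowest p values in edgeR were those of *Cr1l* (log2 fold change -0.09, adjusted p = 0.7778) and *Csmd1* (-0.14, adjusted p = 0.7902). The C1q proteases *C1ra* and *C1s1* had log2 fold changes of 0.08 and 0.09, with adjusted p values of 0.9002 and 0.9184.

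Among complement receptors, 8 of 11 entries were tested, with a median log2 fold change of -0.02 and none with an unadjusted p under 0.05. *Calr* (170.9 CPM per kb) and *Lrp1* (19.5), which bind the collagen-like part of C1q and act in most cell types, had log2 fold changes of 0.04 and -0.01. The leukocyte integrin *Itgb2* (3.82 CPM per kb) had -0.02, and *Itgam*, its partner in the receptor CR3, is listed as 2 entries with -0.26 and -0.03. *C3ar1*, the C3a receptor of macrophages, had 5.06 ± 2.35 and 5.06 ± 1.10 CPM (SD, n = 4 each), a log2 fold change of 0.01, and the C5a receptor *C5ar1* had 1.87 ± 0.320 and 1.77 ± 0.427 CPM, a log2 fold change of -0.08.

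Lastly, the members were set beside 40 interferon-stimulated genes, to see whether those genes and macrophage RNA were raised in the same mice. Of the 40, 38 had a log2 fold change above 0, 16 had an unadjusted p under 0.05 in the higher and 0 in the lower direction, and 0 passed the adjusted threshold in edgeR. In DESeq2 1 of the 40, *Isg15*, passed that threshold, and in limma voom 0 did. The median was 0.28. Without WT mouse 8, the number with an unadjusted p under 0.05 was 9. Levels of the groups were apart for 5, *Isg15*, *Ifit1*, *Mx1*, *Zbp1* and *Bst2*. Over all genes tested, 3.51% had such a p in the higher direction and 1.98% had groups apart in that direction. The list was written with earlier results of these data known, so its direction and these counts are no independent evidence. *Isg15*, a ubiquitin-like modifier, had 7.31, 5.81, 5.08 and 4.36 CPM in the WT mice and 11.8, 9.02, 11.9 and 11.9 CPM in the *Opa1*+/- mice, a log2 fold change of 0.98 with an adjusted p of 0.2937 in edgeR, 1.49e-04 in DESeq2 and 0.097 in limma voom. *Zbp1*, a sensor of Z-form nucleic acid, and *Ifit3* had log2 fold changes of 1.004 and 0.54, with an adjusted p of 0.7215 for each.

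The 40 genes together gave 833.1, 836.7, 828.0 and 794.5 CPM in WT mice 4, 5, 6 and 8 and 981.3, 993.4, 995.4 and 919.0 CPM in *Opa1*+/- mice Het_2, Het_7, Het_484 and Het_491. The 10 members together gave 193.0, 132.4, 213.9 and 153.3 CPM in the same WT mice and 154.7, 174.1, 166.4 and 203.7 CPM in the *Opa1*+/- mice. The groups were apart in the first sum and overlapped throughout in the second. The mean of the first sum was 1.18 times as high in *Opa1*+/- as in WT mice, and that of the second 1.01 times as high. The ratio of the first sum to the second within a mouse was 4.32, 6.32, 3.87 and 5.18 in the WT mice and 6.34, 5.70, 5.98 and 4.51 in the *Opa1*+/- mice, so the ratios overlapped. Het_491, with the highest sum of the members in its group, had the lowest interferon-stimulated sum of that group.

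**Figure D5:**
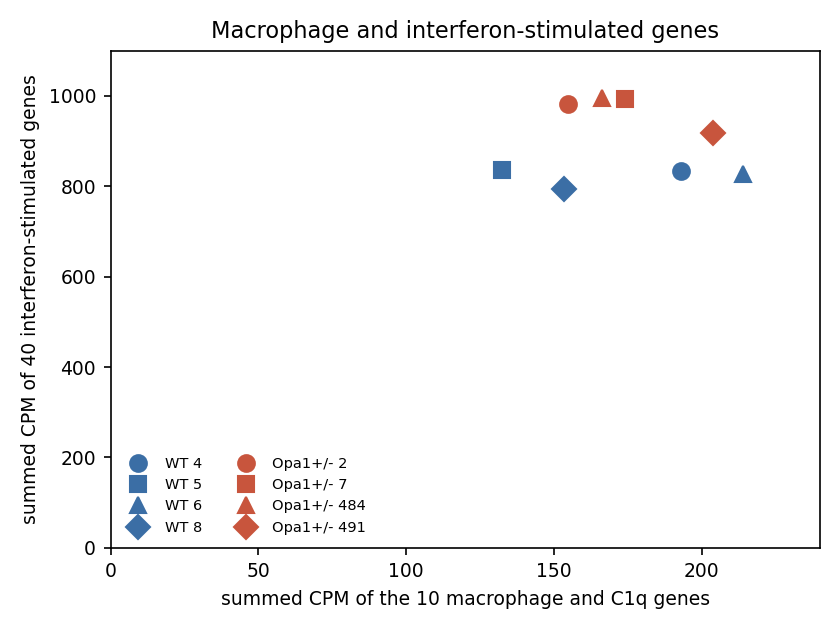
Summed CPM of 40 interferon-stimulated genes against summed CPM of the 10 members in each mouse, both axes from 0. WT mice (blue) lie between 794.5 and 836.7 CPM on the vertical axis and *Opa1*+/- mice (red) between 919.0 and 995.4 CPM, while on the horizontal axis the groups overlap.

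The comparison was repeated with library sizes set by the 30 other macrophage genes, as the median over these genes of their ratio to the geometric mean of the libraries, so that no single gene such as *Lyz2* carries the scale. Some of these genes were highest in WT mouse 4, which had the most neutrophil and bone marrow RNA. *Cybb* had 41.2 CPM there and 20.0 to 21.9 CPM in the other WT mice. Others were not, such as *Mertk*, with 31.1 CPM in WT mouse 4 and 47.8 CPM in WT mouse 6. The scale may thus hold RNA of other myeloid cells, which was not tested. This alternative was chosen after the values were seen. On that scale the interferon-stimulated genes had a median log2 fold change of 0.19, and 7 of 40 had an unadjusted p under 0.05 in edgeR. The share of all genes with such a p was not taken on this scale, so these counts have no background. *Mrc1* had -0.40 (SE 0.164, unadjusted p = 0.02778, adjusted p = 0.9984 by edgeR) and *C1qa* 0.23 (unadjusted p = 0.2069). All members moved down by similar amounts, since a change of scale shifts every gene. The signs of *Cx3cr1* and *Aif1*, which had been close to 0, turned by this shift, with log2 values of -0.01 for each.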

How the data were processed

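Per the labels and the study's methods, cochlear RNA was made into CORALL libraries, sequenced as 2 × 80 nucleotides and mapped to GRCm38 with STAR, with molecular identifiers used by the authors. The labels name TRI Reagent or an RNeasy kit without saying which library had which. The authors deposited raw counts per gene symbol for each mouse. Here 15 entries with a number in place of a symbol (0.112% to 0.124% of counts) were left out.

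Library sizes were counts on the 47628 named entries, scaled by TMM. Genes with a mean DESeq2-normalized count over 10 (19366) were tested with edgeR 4.0.16 (quasi-likelihood, Benjamini-Hochberg), checked on simulated counts, with DESeq2 1.42.0 and limma 3.58.1 as alternatives. R 4.3.3 was used. Each standard error (SE) was taken as the size of a log2 change over the root of its F statistic. Positions and merged exon lengths are from GENCODE vM21. p-values measure the spread between 4 and 4 mice, and counting error is included in it.

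Members and gene lists were chosen with earlier results of these data known. Named in the text are all members, 3 ligand genes, *Opa1*, for each list the genes past the adjusted threshold or up to 3 with the lowest p, for macrophage and complement lists also the 3 with the highest level per length, and the 10 genes most like the members. Some genes that this rule names are not reported here. Further genes (*C1ra*, *C1s1*, *C3ar1*, *P2ry12*, *Lyve1*, *Stab1*, central and erythroid markers, the terminal complement genes and interferon-stimulated genes with groups apart) were named after their values were seen. Alternatives were DESeq2 size factors, total counts, mitochondrial genes left out, robust estimation, no filter, filterByExpr, a threshold of 0.1, neutrophil and marrow genes as a covariate, and mice left out.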

Additional observations from a re-analysis of the deposited data

Results flagged for a closer look

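Over 56 groups of 4 mice, the levels of the 10 members and the sums of all 18 gene lists were examined for a single mouse far from the other 3, of which about 1 in 20 is to be expected to stand out by chance. *Cx3cr1* had 21.87 CPM in WT mouse 6 and 11.51 to 13.01 CPM in the other WT mice, a gap of 0.854 of the group's range. The neutrophil and bone marrow genes summed to 1547 CPM in WT mouse 4 and to 469.2 to 578.9 CPM in the other WT mice, a gap of 0.898 of the range. The lymphocyte genes summed to 34.19 CPM in the same mouse and to 14.34 to 16.85 CPM in the other WT mice (gap 0.874). Complement receptor genes summed to 944.1 CPM in WT mouse 6 and to 839.4 to 854.8 CPM in the other WT mice (gap 0.853).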

How the results depend on the processing

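No paired analysis was possible, because the labels do not say which mice shared a litter. Across 200 values of members under the alternatives, 166 kept their direction, 34 did not (21 of these with 1 mouse left out), 6 had an unadjusted p under 0.05 and 0 passed the adjusted threshold, with a lowest adjusted p of 0.5035. Robust estimation leaves the log2 values as they were and so could not turn a sign. DESeq2 size factors and filterByExpr moved them little. The 166 are thus no measure of stability. No member passed that threshold under any alternative, a threshold of 0.1 included. Members with an unadjusted p under 0.05 in edgeR numbered 1 with total counts alone (*Mrc1*), 1 without a filter (*Mrc1*) and 1 on the scale of the other macrophage genes (*Mrc1*). With 1 mouse left out it was 0 to 2, being 1 without WT mouse 5 (*Mrc1*, -0.41) and 2 without WT mouse 6 (*Cx3cr1* and *C1qa*). *C1qa* stayed above 0 and *Mrc1* below 0 in every alternative run.

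Over all genes 1 passed without mitochondrial genes, 23 with DESeq2, 10 with voom, 10 with robust estimation, 10 with the covariate, 12 without a filter, 11 at a threshold of 0.1, 9 on the macrophage scale, 0 without Het_484 and Het_491, 0 also without WT mouse 4, and 0 (without Het_2) to 9 (without WT mouse 4) with 1 mouse left out. Interferon-stimulated genes with an unadjusted p under 0.05 numbered 7 of 40 on the macrophage scale, with a median of 0.1902, and 9 to 18 with 1 mouse left out (9 without WT mouse 8). The share of all genes with such a p was taken for the main run only.

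Signs turned for *Csf1r* (0.04466), *Adgre1* (0.02257) and *Ptprc* (0.01255) under voom, for *Aif1* with the covariate (-1.98e-04), for *Cx3cr1* (-0.01467) and *Aif1* (-0.009595) on the macrophage scale, for *Aif1* (-0.2889), *C1qb* (-0.01334) and *C1qc* (-0.05358) without Het_484 and Het_491, and for *Csf1r* (0.02645), *Cx3cr1* (-0.03486), *Aif1* (-0.1645) and *C1qc* (-0.05338) when WT mouse 4 was left out too (chosen after seeing the data). With 1 mouse left out, ranges were -0.1165 to 0.06478 for *Csf1r*, -0.04648 to 0.3154 for *Cx3cr1*, -0.1005 to 0.2279 for *Aif1*, -0.04463 to 0.2406 for *Cd68*, -0.0449 to 0.2766 for *C1qb*, -0.0608 to 0.3343 for *C1qc*, -0.09317 to 0.06776 for *Adgre1* and -0.1881 to 0.2225 for *Ptprc*. The causes were not tested. Depth limits *Aif1* most (37 to 69 counts).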

Other observations

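RNA of other blood and bone cells moved in these libraries without separating the groups. Of 8 tested osteoclast genes 2 lay above and 6 below 0, and their list summed to 159.4 ± 55.3 CPM in WT against 150.8 ± 33.6 CPM in *Opa1*+/- mice (SD, n = 4 each). Monocyte genes (8 tested, 4 on each side of 0) summed to 458.1 ± 86.4 and 455.5 ± 48.5 CPM. Of 14 lymphocyte genes 7 were tested, and the list summed to 20.3 ± 9.33 and 19.2 ± 4.76 CPM, with 34.2 CPM in WT mouse 4. Mast cell genes summed to 58.0 ± 5.65 and 58.3 ± 2.95 CPM. Of 14 erythroid genes 13 lay above 0 and 1 (*Bpgm*) had an unadjusted p under 0.05 in edgeR, with sums of 12910 ± 6292 and 18886 ± 4634 CPM. Of 17 tested neutrophil and bone marrow genes, 9 lay above and 8 below 0.

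Complement components other than C1q summed to 178.9 to 223.1 CPM in WT mice and 244.3 to 294.0 CPM in *Opa1*+/- mice, so the sums were apart, and *C3*, *C4b* and *Cfd* made up most of them. Within the cochlear list, 12 of 13 tested genes lay below 0 and none had an unadjusted p under 0.05, with a median log2 fold change of -0.07.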
